A study of Sus scrofa with 21 samples.

Results

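The endometrium of pregnant Large White sows at day 13 attachment sites was compared with the endometrium of non-pregnant Large White sows killed on the same day, on 6 of the 21 arrays of a study of implantation in the pig. The attachment-site group held 3 arrays of the uterine lining taken where a conceptus was attached, from sows that had been inseminated. The non-pregnant group held 3 arrays of endometrium from sows that had received inactivated sperm from the same boar. Both groups were chosen by sample title, and all probes that were not controls were used. The labels state that 3 sows were killed for each pregnant day and 3 for the non-pregnant group, but they tie no array to a sow, nor do they say how much underlying muscle the samples held. The remaining 15 arrays hold the inter-sites of day 13 (the stretches between attached conceptuses) and attachment sites and inter-sites of days 18 and 24, with 3 arrays each.

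In the pig the conceptus does not invade the uterus: its outer layer apposes and adheres to the luminal epithelium, and the glands feed it with secretions called histotroph. At this stage the conceptuses have elongated and release oestrogens, while progesterone from the corpora lutea acts on the uterus. Progesterone receptor is known to be lost from the uterine epithelium and kept in the stroma under sustained progesterone. Secreted antagonists of WNT and activin signals, growth factors, steroid-metabolising enzymes, prostaglandins and cytokines are all part of the exchange between conceptus and endometrium.

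Each level below is a log2 signal from which the 75th percentile of its array was subtracted, so 0 stands for that percentile and a difference of 1 is a doubling on a linear scale. A gene was represented by its brightest probe, and levels of different probes were not compared. A probe was called when limma gave an adjusted p under 0.05 over all tested probes in a fit of all 21 arrays. On the 6 arrays compared, 62.3% to 72.2% of probes were well above background, and no probe was saturated. Of 43603 probes 30089 were tested, and these stood for 2018 genes with a symbol.

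Limma called 534 probes (1.77% of those tested), 252 higher at attachment sites (0.838%) and 282 lower (0.937%). With the array median as the scale the count was 439, of which 253 were higher and 186 lower. Among named genes 52 were called (2.58%), 18 higher (0.892%) and 34 lower (1.68%). All 52 had attachment-site arrays that did not overlap the non-pregnant arrays, a separation seen in 34.9% of all named genes tested. The gene lists used below were drawn up with earlier results of these data known. They hold 715 of the tested genes and 36 of the 52 called ones. A list's share of calls, set beside 2.58%, is therefore a description and no test of the list. Slides 2 and 3 each held an array of both groups. With slide as a fixed block limma called 0 probes (lowest adjusted p = 0.0506, with 5103 probes at an unadjusted p under 0.05), and with normexp background it called 26. Since the groups of the 52 genes do not overlap, their sign within a slide is set by that separation and adds no check. The number of calls also rested on single arrays. It was 48, 12 and 44 without attachment-site replicate 1, 2 or 3, and 0, 1 and 657 without non-pregnant replicate 1, 2 or 3; the count of 0 came with 4566 probes at an unadjusted p under 0.05 in limma.

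**Figure D1:**
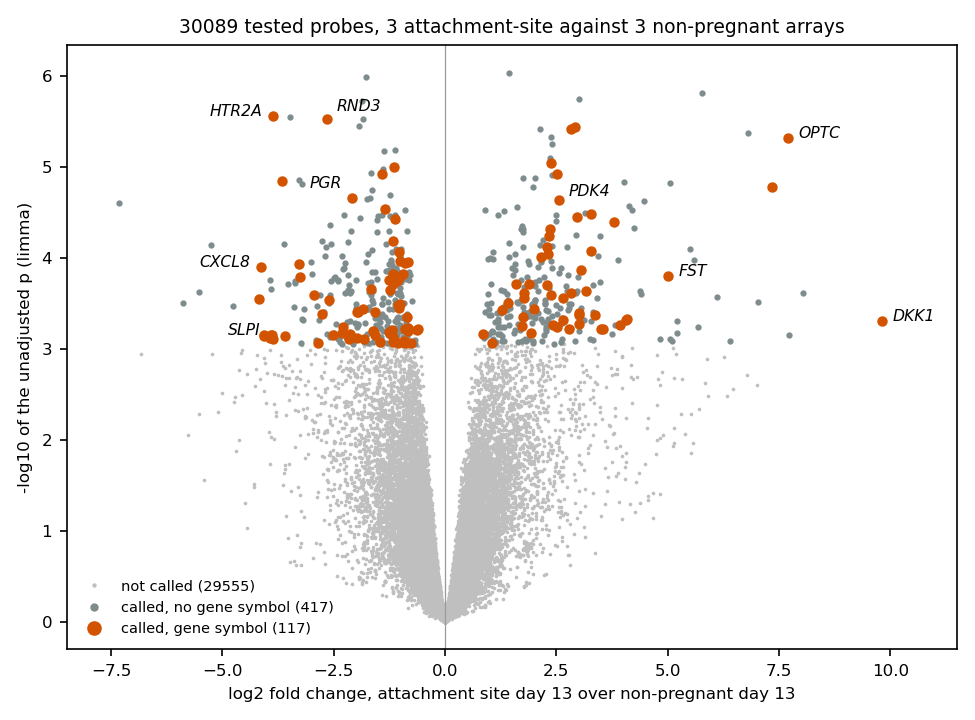
Each point is 1 of 30089 tested probes, with the log2 fold change of day 13 attachment sites over non-pregnant endometrium on the horizontal axis and -log10 of limma's unadjusted p on the vertical axis. Orange points are the 117 called probes with a gene symbol, dark grey points the 417 called probes without one, and DKK1 lies farthest to the right at 9.82.

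Libraries differed in ways the groups did not fully explain. Non-pregnant replicates 1 and 2 correlated at 0.989 over all probes, and replicate 3 correlated with them at 0.946 and 0.947. On-off probes were 164 probes with a gap of at least 1.5 log2 units between a high and a low set of libraries. Group accounted for under 0.5 of the variance of that state. At these probes non-pregnant replicates 1 and 2 matched at 98.2%, and replicate 3 matched them at 26.2% and 25.6%. Among attachment-site arrays, replicates 1 and 2 matched at 91.5%, and replicate 3 matched them at 77.4% and 71.3%. Attachment-site replicate 1 matched inter-site replicate 2 of the same day at 98.2%, and attachment-site replicate 3 matched inter-site replicate 3 at 97.6%. Non-pregnant replicate 3 matched an array of a pregnant group most closely, inter-site day 24 replicate 3, at 98.8% (correlation 0.988 over all probes). Whether one of these libraries goes against its label was not tested, and every result below rests in part on the library labelled non-pregnant replicate 3. Without it limma called 657 probes, and 33 of the 52 genes kept their call. With libraries that match at these probes as a random block, an alternative chosen after seeing the data, the count was 0 (lowest adjusted p = 0.153, estimated correlation 0.513, 2670 probes at an unadjusted p under 0.05). Which arrays come from separate sows is not settled by the labels, so p-values measure the spread between these arrays. Inter-site day 13 replicate 1 and inter-site day 24 replicate 3 stood apart from their groups. They are not part of the comparison but add to the spread of the fit: without them limma called 1968 probes and 194 named genes, 94 higher and 100 lower, which included all 52. That fit is 1 of 20 alternatives, gave the most calls of them and keeps non-pregnant replicate 3. Over the 20, the 52 genes were called in 3 (JPT1) to 16 (RND3). The p-values with 19 arrays below are to be read with that range, which covers the 52 genes alone. For genes that pass below only with 19 arrays, no other alternative is given beside them. With only the 6 arrays compared, some of these pass and others do not, for example CLDN3 and CLDN8 (limma adjusted p = 0.0155 and 0.0960).

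The WNT and activin antagonists held the largest rise among the named genes. DKK1, a secreted inhibitor of WNT signalling, had levels of 5.68, 4.33 and 4.84 at attachment sites, against -4.62, -5.37 and -4.62 in non-pregnant endometrium, where it was well above background on 2 of 3 arrays. All 3 attachment-site arrays were thus far above the non-pregnant ones, by 9.82 on the log2 scale (SE 2.28, limma adjusted p = 0.0405, and 9.19e-08 in the fit of 19 arrays). It was called in 9 of the 20 alternatives, where its adjusted p reached 0.527. FST, follistatin, which binds and neutralises activin, stood at 2.67, 2.03 and 2.16 at attachment sites, against -2.05, -2.64 and -3.48 in non-pregnant endometrium. The groups were separated by more than their own ranges, and the rise was 32.2-fold on its brightest probe (log2 5.01, SE 1.03, adjusted p = 0.0291). Its other probe rose by less, 2.51 on the log2 scale (SE 0.59, adjusted p = 0.0429), and FST was called in 12 of the 20 alternatives, with an adjusted p of up to 0.423. These 2 genes were the only ones called of the 22 tested members of the list of WNT, activin and BMP signals. That is 9.09% against 2.58% of all named genes, and the list's median change was 0.12 against -0.10 over all named genes. The measured members with the next largest differences were the secreted DKK3 (-1.26) and the receptor TGFBR1 (-1.02, adjusted p = 0.0356 with 19 arrays), and none of the ligands BMP2, BMP4, BMP7, INHBA and TGFB1 was called (-0.80 to 0.89). NDP, norrin, a secreted ligand of a frizzled receptor that is in none of the lists, rose by 2.65 (SE 0.61, adjusted p = 0.0397), with levels of -1.36, -1.82 and -2.01 at attachment sites and -4.81, -4.44 and -3.91 in non-pregnant sows, well above background on 2 of the 3 non-pregnant arrays.

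The list of growth factor signals and receptors, which also holds transcription factors of the KLF family, gave 3 calls of 23 tested members. That is 13% against 2.58% of all named genes, all of the calls were higher, and the list median was 0.41. CTGF, a matrix-associated growth factor, had levels of 5.32, 5.05 and 5.71 at attachment sites, against 1.73, 1.90 and 2.34 in non-pregnant endometrium. Its arrays were tight within each group, and it rose 10.3-fold (log2 3.37, SE 0.77, adjusted p = 0.0385). EGF, the ligand of the EGF receptor, had levels of -0.71, -1.65 and -2.91 at attachment sites and -4.29, -3.91 and -4.36 in non-pregnant sows. It rose by 2.43 (SE 0.57, adjusted p = 0.0419), with a spread among the attachment-site arrays that nearly reached the non-pregnant range. KLF5, a transcription factor of proliferating epithelium, rose by 3.02 (SE 0.71, adjusted p = 0.0414), with levels of 2.10, 1.45 and 1.11 at attachment sites and -2.11, -1.83 and -0.44 in non-pregnant sows. Its other probe differed by 1.65 and was not called (SE 0.55, adjusted p = 0.114). The receptors EGFR (0.31), MET (1.06) and IGF1R (1.35) were not called, and neither were IGF1 (1.34), the EGF family ligand AREG (2.21 on one probe and -0.90 on its other) and the IGF-binding protein IGFBP6 (-1.82). In the fit of 19 arrays IGF1R and IGFBP6 passed, at adjusted p = 0.0049 and 0.0363.

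Progesterone receptor fell at attachment sites. PGR had levels of 1.15, 1.16 and 1.25 there, against 3.44, 3.01 and 3.38 in non-pregnant endometrium. The arrays of each group lay close together and far from the other group, and the fall was 4.26-fold (log2 -2.09, SE 0.36, adjusted p = 0.0167). PGR was called in 13 of the 20 alternatives, with an adjusted p of up to 0.297. In whole tissue, fewer cells of a type and less RNA per cell cannot be told apart, here and for every other gene. ESR1, the oestrogen receptor alpha gene, had levels of 0.39, 0.78 and 0.85 at attachment sites and 2.41, 2.51 and 1.72 in non-pregnant sows. Its groups did not overlap, but the difference of -1.54 missed the threshold (SE 0.41, adjusted p = 0.0604) and passed it in the fit of 19 arrays (adjusted p = 0.00865). NR0B1, an orphan nuclear receptor known as a repressor of steroidogenic gene expression, rose by 3.79 (SE 0.69, adjusted p = 0.0185). Its levels were -1.35, -2.97 and -2.66 at attachment sites and -6.62, -6.93 and -4.81 in non-pregnant sows, well above background on 1 of the 3 non-pregnant arrays.

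PGR was the single call among 24 tested members of the steroid list (4.17% against 2.58% of all named genes), which had a median of 0.08. SULT1E1, the oestrogen sulfotransferase that inactivates oestrogens, had levels of -0.17, -0.73 and -4.36 at attachment sites and of -7.29, -6.70 and -7.41 in non-pregnant sows, none of them well above background. It was at least 11-fold higher (adjusted p = 0.116, and 0.0065 in the fit of 19 arrays), with attachment-site replicate 3 nearest to the non-pregnant values. AKR1C1, an aldo-keto reductase of steroid and prostaglandin metabolism, had levels of -1.51, -0.05 and -0.65 at attachment sites, against -6.18, -6.76 and -5.25 in non-pregnant sows, well above background on 1 of 3 there (difference 5.33, adjusted p = 0.0661, and 0.00747 with 19 arrays). Its groups were wide apart, and all its 4 probes differed by 2.56 to 5.33. The hydroxysteroid sulfotransferase SULT2A1 differed by 3.13 (adjusted p = 0.324). Of the enzymes that interconvert cortisol and cortisone, both picked here after their values were seen, HSD11B2 differed by 1.96 and HSD11B1 by -2.24 (adjusted p = 0.0676 and 0.0517, and 0.0341 and 0.00823 with 19 arrays). Neither gene's groups overlapped.

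None of 15 tested prostaglandin genes was called, and their median was -0.27. PTGS2, the inducible cyclooxygenase, had levels of 3.00, 1.77 and 0.93 at attachment sites, against -0.91, -0.06 and -0.76 in non-pregnant endometrium. The groups did not overlap, with attachment-site replicate 1 the highest (difference 2.48, SE 0.98, adjusted p = 0.172, and 0.0484 with 19 arrays). OXTR, the oxytocin receptor, through which oxytocin drives prostaglandin release, had levels of -2.90, -1.81 and -2.27 at attachment sites and 1.32, 0.83 and -1.29 in non-pregnant sows. The third non-pregnant array lay near the attachment-site values (difference -2.61, adjusted p = 0.0944, and 0.0256 with 19 arrays). The prostaglandin E receptor PTGER3 differed by -1.58 with overlapping groups. LPAR3, the receptor for lysophosphatidic acid, had levels of -3.23, -4.55 and -5.39 at attachment sites and -5.24, -4.54 and -3.18 in non-pregnant sows, a difference of -0.07 (SE 0.83, adjusted p = 0.973).

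Of the secreted proteins, opticin rose and a protease inhibitor fell. OPTC, a small leucine-rich proteoglycan, had levels of 0.40, 1.63 and 1.68 at attachment sites and -7.14, -6.86 and -5.41 in non-pregnant endometrium, none of them well above background. It was at least 84.9-fold higher (adjusted p = 0.00903), and its other probe was called as well. SLPI, secretory leukocyte peptidase inhibitor, had levels of 5.35, 5.58 and 3.67 at attachment sites, against 8.15, 9.17 and 9.0 in non-pregnant sows. Every attachment-site array was lower, and the fall was 3.91 on the log2 scale (SE 0.94, adjusted p = 0.0462), with all 7 probes called lower at -4.07 to -3.58. They were the only calls of 32 tested members of the histotroph list (6.25% against 2.58% of all named genes), whose median was -0.05. STC1, stanniocalcin, a secreted glycoprotein of calcium and phosphate handling, had levels of 2.86, 1.69 and -1.13 at attachment sites and -5.61, -6.21 and -3.55 in non-pregnant sows. The difference of 6.26 (SE 1.61) just missed the threshold at adjusted p = 0.0561 and passed it with 19 arrays at 0.0137.

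RBP4, the retinol carrier, was chosen after its values were seen: its levels were 8.43, 8.29 and 8.29 at attachment sites and 5.44, 6.41 and 4.40 in non-pregnant sows. It was high and even at attachment sites (difference 2.93, adjusted p = 0.191, and 0.000474 with 19 arrays). ACP5, uteroferrin, the iron-binding acid phosphatase of pig histotroph, had levels of 8.95, 9.12 and 9.07 at attachment sites and 9.11, 9.38 and 6.05 in non-pregnant sows. The groups overlapped, and the difference of 0.86 rested on non-pregnant replicate 3. SPP1, osteopontin, an adhesion protein secreted by the luminal epithelium, had levels of 1.89, 1.26 and -0.60 at attachment sites and 0.93, 2.02 and 3.20 in non-pregnant sows (difference -1.20, adjusted p = 0.361). Among 32 tested proteases and inhibitors, SLPI and ANPEP were called (6.25% against 2.58% of all named genes) and the median was -0.29. ANPEP, the membrane-bound aminopeptidase N, had levels of 1.42, 1.36 and 2.17 at attachment sites, against -0.76, -1.30 and 0.54 in non-pregnant sows, and rose 4.47-fold (log2 2.16, SE 0.43, adjusted p = 0.0263).

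The cytokine list had 2 higher and 2 lower calls of 75 tested members, which is 5.33% against 2.58% of all named genes (median -0.17). SAA3, an acute-phase serum amyloid A, had levels of 4.67, 3.15 and 3.60 at attachment sites, against -1.5, -0.81 and 1.54 in non-pregnant endometrium. It rose 16.7-fold (log2 4.07, SE 0.94, adjusted p = 0.0397), all 5 probes were called, and non-pregnant replicate 3 was the closest to the pregnant values. CD14, the lipopolysaccharide co-receptor of macrophages, had levels of 1.5, 1.41 and 2.26 at attachment sites and -0.33, -0.30 and -0.19 in non-pregnant sows (log2 2.0, SE 0.45, adjusted p = 0.0363). Its other probe differed by 2.26 and was not called (limma adjusted p = 0.0599). The other tested macrophage markers were not called, with differences of -1.0 for AIF1, -0.37 for CD180 and 0.04 for CD163.

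CXCL8, interleukin 8, a neutrophil attractant, had levels of -7.18, -4.80 and -5.18 at attachment sites and -1.97, -1.28 and -1.50 in non-pregnant endometrium. It fell by 4.13 on the log2 scale (SE 0.83, adjusted p = 0.0279), and was well above background on 2 of 3 attachment-site arrays. TLR3, the receptor for double-stranded RNA, stood at 0.16, 0.13 and 0.23 at attachment sites, against 1.44, 1.75 and 1.08 in non-pregnant sows, and fell 2.38-fold (log2 -1.25, SE 0.26, adjusted p = 0.0292). Both genes separated the groups on every array. The related chemokine AMCF-II, chosen after its values were seen, had levels of -7.41, -8.32 and -5.70 at attachment sites, none of them well above background, and -2.70, -2.12 and -0.88 in non-pregnant sows. It was at least 12.8-fold lower (adjusted p = 0.0546, and 0.000755 with 19 arrays). IL1B had levels of -4.25, -4.59 and -3.09 at attachment sites and -2.58, -2.73 and -1.13 in non-pregnant sows. The difference of -1.83 did not pass either fit (adjusted p = 0.132, and 0.0769 with 19 arrays).

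None of 34 tested genes of the interferon response was called, nor any of 26 of antigen presentation or 32 of complement and coagulation, with medians of -0.06, -0.35 and -0.17. The interferon-induced genes ISG15 and MX1 differed by 0.24 and -0.21. Among the larger differences in the first list were that of the chemokine CXCL9 (-1.21), and the chemokine CXCL11 was at least 4.15-fold lower, with no attachment-site array well above background. In the second list the immunoproteasome subunit PSMB10 differed by -1.24 and the class II gene SLA-DRB1 by -0.84. The costimulator CD80, well above background on no attachment-site array and 1 non-pregnant array, was at least 1.64-fold lower (adjusted p = 0.259). In the third list C5 differed by -1.76 and complement factor B (CFB) by -1.67. Plasminogen (PLG), well above background on 2 attachment-site arrays and no non-pregnant array, was at least 1.51-fold higher (adjusted p = 0.290). In the fit of 19 arrays CXCL11 and PSMB10 passed, at adjusted p = 0.0294 and 0.0492.

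**Figure D2:**
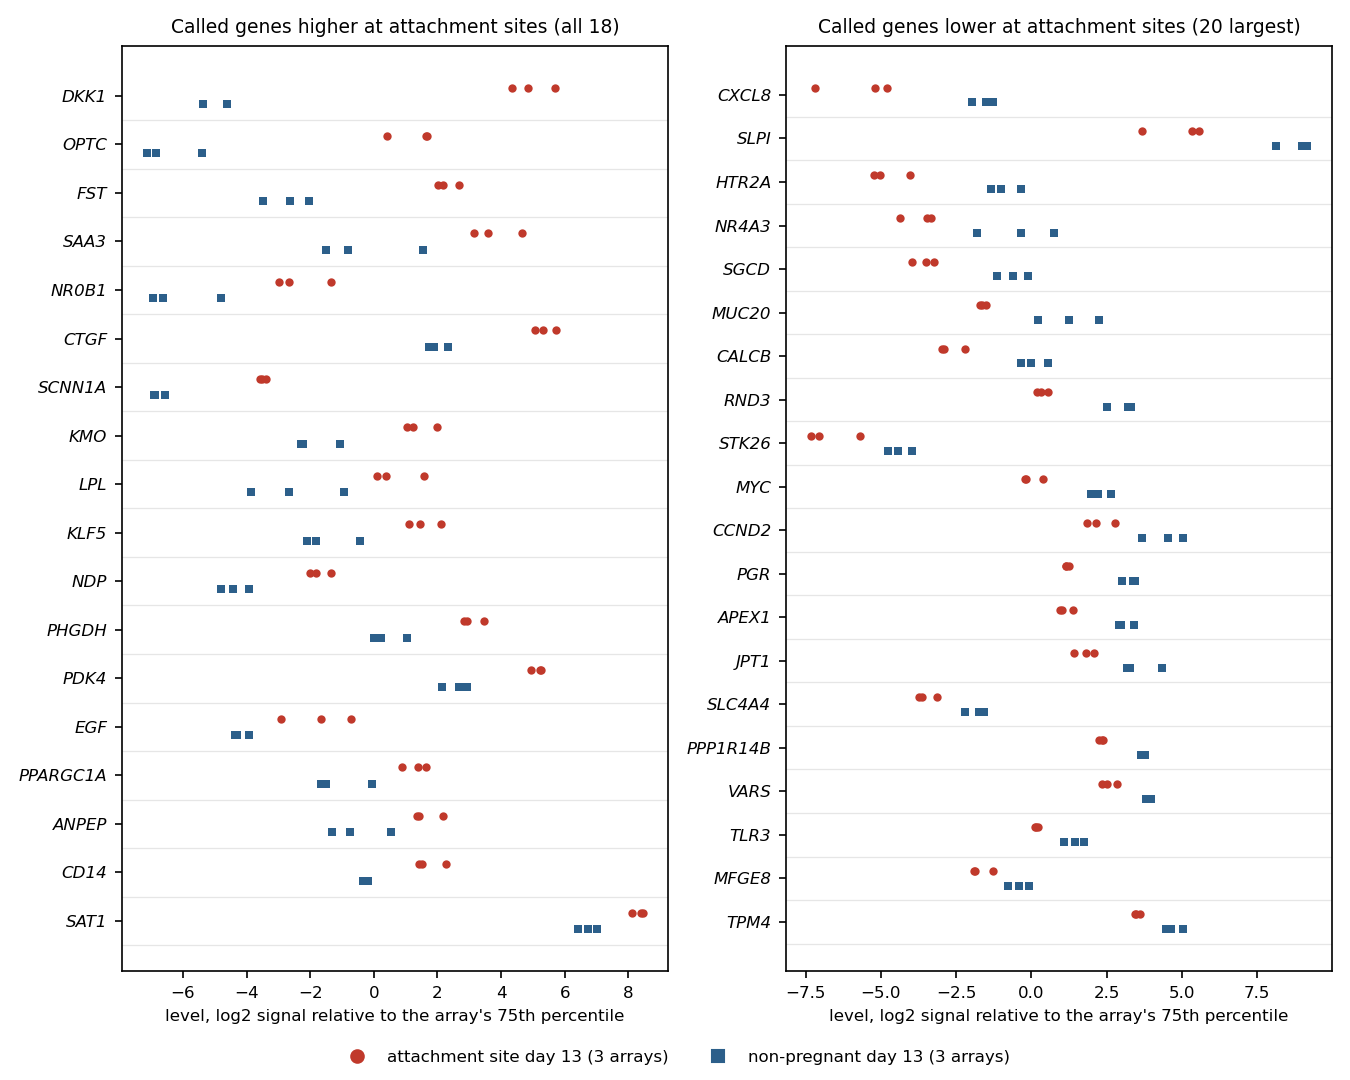
Levels on each array (log2 signal minus the 75th percentile of the array, horizontal axis) of the 18 genes called higher at day 13 attachment sites and of the 20 called genes with the largest falls. Red circles are the 3 attachment-site arrays and blue squares the 3 non-pregnant arrays; the groups do not overlap for any of these genes, and DKK1, OPTC and FST are the widest apart.

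Ion transport and solute carriers gave few calls. SCNN1A, the alpha subunit of the epithelial sodium channel, had levels of -3.59, -3.51 and -3.40 at attachment sites and of -6.57, -6.92 and -6.87 in non-pregnant sows, none of them well above background. It was at least 3.27-fold higher (adjusted p = 0.0175). SCNN1A was the only call of 41 tested genes of channels, pumps and calcium binding (2.44% against 2.58% of all named genes, median -0.10). FXYD2, a modulator of the sodium pump, differed by 4.06 (adjusted p = 0.142), with levels of 4.94, 3.28 and 1.99 at attachment sites and -0.74, -0.35 and -0.88 in non-pregnant sows. The potassium channel subunit KCNG1 differed by -4.45 with overlapping groups, in step with the smooth muscle genes below: its levels were -3.85, 3.15 and -3.16 at attachment sites and 5.65, 4.99 and -1.16 in non-pregnant sows.

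SLC4A4, the sodium bicarbonate cotransporter, had levels of -3.62, -3.15 and -3.73 at attachment sites, against -1.75, -1.57 and -2.21 in non-pregnant endometrium, and fell 3.15-fold (log2 -1.66, SE 0.35, adjusted p = 0.0320). It was the only call of 55 tested solute carriers (1.82% against 2.58% of all named genes, median -0.15). The amino acid transporters SLC7A9 and SLC7A2 differed by 3.70 and 2.11, and the glucose transporter SLC5A1 by 2.02. Their groups did not overlap, and only SLC7A9 and SLC7A2 passed with 19 arrays (adjusted p = 0.00823 and 0.0113).

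Amino acid metabolism gave 3 calls of 20 tested genes (15% against 2.58% of all named genes). All were higher, and the list had the highest median of the pathway lists, 0.57. KMO, kynurenine 3-monooxygenase of tryptophan breakdown, had levels of 1.24, 1.99 and 1.04 at attachment sites, against -2.24, -2.28 and -1.05 in non-pregnant endometrium. It rose 9.71-fold (log2 3.28, SE 0.64, adjusted p = 0.0254). PHGDH, the first enzyme of serine synthesis from a glycolytic intermediate, had levels of 2.84, 3.46 and 2.92 at attachment sites, against 0.00, 0.23 and 1.04 in non-pregnant sows (log2 2.65, SE 0.58, adjusted p = 0.0340). SAT1, which acetylates polyamines for export or breakdown, had levels of 8.11, 8.39 and 8.46 at attachment sites and 6.42, 6.74 and 7.01 in non-pregnant sows (log2 1.60, SE 0.34, adjusted p = 0.0298). PHGDH and SAT1 had more than 1 probe each, all of them called higher. Other members, picked after their values were seen, were GNMT (3.32) and CTH (2.08) of methionine metabolism, AHCY (-1.62) of the same cycle, and ODC1 (-1.05), the first enzyme of polyamine synthesis. These 4 missed the threshold and passed it with 19 arrays, at adjusted p = 0.0233, 0.0302, 0.0131 and 0.0320.

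Of 66 tested genes of lipid and fuel use 3 were called (4.55% against 2.58% of all named genes), all higher, with a list median of 0.14. LPL, lipoprotein lipase, had levels of 1.57, 0.10 and 0.39 at attachment sites, against -2.67, -3.86 and -0.94 in non-pregnant endometrium, and rose 9.05-fold (log2 3.18, SE 0.68, adjusted p = 0.0321). Another of its probes, at 2.76, was not called (limma adjusted p = 0.0540). PDK4, a kinase that shuts off pyruvate dehydrogenase and so spares glucose, had levels of 5.22, 4.93 and 5.25 at attachment sites and 2.67, 2.92 and 2.14 in non-pregnant sows. It rose 5.86-fold (log2 2.55, SE 0.44, adjusted p = 0.0168), and all 9 of its probes were called. PPARGC1A, a coactivator of oxidative metabolism, had levels of 1.63, 1.38 and 0.88 at attachment sites and -1.67, -1.51 and -0.06 in non-pregnant sows (log2 2.37, SE 0.51, adjusted p = 0.0326). For LPL and PPARGC1A non-pregnant replicate 3 was the nearest to the attachment-site values.

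HTR2A, a serotonin receptor, had levels of -5.02, -4.04 and -5.22 at attachment sites, well above background on 2 of 3 arrays, against -1.0, -1.33 and -0.33 in non-pregnant endometrium. It fell by 3.88 (SE 0.56, adjusted p = 0.00898, the lowest among named genes, shared with RND3). CALCB, a calcitonin gene-related peptide, had levels of -2.19, -2.89 and -2.98 at attachment sites and -0.33, 0.00 and 0.54 in non-pregnant sows, and fell 6.78-fold (log2 -2.76, SE 0.63, adjusted p = 0.0384). Both belonged to the 27 tested vasoactive genes (7.41% called against 2.58% of all named genes, median 0.05). MUC20, a membrane mucin, had levels of -1.49, -1.65 and -1.71 at attachment sites and 0.22, 1.24 and 2.26 in non-pregnant sows (log2 -2.86, SE 0.71, adjusted p = 0.0495). It was the only call of 48 tested adhesion genes (2.08% against 2.58% of all named genes, median 0.16). Among them the tight junction genes CLDN8 (3.33), CLDN22 (2.61) and CLDN3 (1.79) had large differences. CLDN8 and CLDN3 passed with 19 arrays (adjusted p = 0.0273 and 0.00189). The matrix list had a median of -0.69 over 16 tested genes, with OPTC its single call (6.25% against 2.58% of all named genes). The matrix protein TNC (-1.85) and the fibrillar collagen COL5A1 (-1.77) were its next largest differences, and COL5A1 passed with 19 arrays (adjusted p = 0.0354).

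MYC and CCND2 fell, as did a few genes of translation. MYC, the transcription factor of growth and ribosome production, had levels of 0.38, -0.16 and -0.21 at attachment sites, against 2.21, 2.0 and 2.65 in non-pregnant endometrium, and fell 4.87-fold (log2 -2.28, SE 0.54, adjusted p = 0.0429). Another of its probes, at -2.10, was not called (limma adjusted p = 0.0586). CCND2, cyclin D2 of the early cell cycle, had levels of 2.14, 2.78 and 1.86 at attachment sites and 5.03, 4.54 and 3.68 in non-pregnant sows (log2 -2.16, SE 0.53, adjusted p = 0.0481). They were the 2 calls of 20 tested cell cycle genes (10% against 2.58% of all named genes, median -0.58). The mitotic genes CDC20, TOP2A and CDK1, chosen after their values were seen, differed by -2.71, -2.65 and -2.37 without a call (CDC20 passed with 19 arrays, adjusted p = 0.0442), and non-pregnant replicate 3 was their highest array. The mean level of the list was -0.29, -0.63 and -0.15 on the attachment-site arrays and -0.05, 0.12 and 1.32 on the non-pregnant arrays, with non-pregnant replicate 3 the highest of the 6.

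The translation list, which also holds some RNA-binding and nuclear transport genes, had 5 lower calls of 42 tested genes (11.9% against 2.58% of all named genes). None was higher, and the median was -0.21. VARS, the valine tRNA ligase, had levels of 2.85, 2.34 and 2.53 at attachment sites and 3.99, 3.81 and 3.99 in non-pregnant sows, and fell 2.56-fold (log2 -1.36, SE 0.24, adjusted p = 0.0175). Its other probe, at -1.99, was not called (limma adjusted p = 0.0650). RANBP1, a regulator of nuclear transport, EIF4A1, the initiation factor helicase, the RNA-binding HNRNPAB and the ribosomal protein paralogue RPL7L1 fell by 1.18, 1.08, 1.04 and 0.63 on the log2 scale (adjusted p = 0.0238 to 0.0439). All 5 probes of RANBP1 were called lower at -1.18 to -0.95, while the other probes of RPL7L1, at -0.50 and -0.32, were not called. EIF4A1 also had a probe, at -0.66, that was not called. RPL7L1 was the only ribosomal protein gene of the list called on its brightest probe. Among called genes outside the lists, APEX1, an endonuclease of base excision repair, fell 3.91-fold (log2 -1.97, SE 0.48, adjusted p = 0.0480), with levels of 1.39, 0.96 and 1.03 at attachment sites and 2.91, 2.97 and 3.40 in non-pregnant sows. DKC1, the pseudouridine synthase of ribosomal RNA, BYSL, a factor of small-subunit assembly, and RTCB, the tRNA-splicing ligase, fell by 1.03, 0.89 and 0.61. JPT1 fell by 1.83 (SE 0.45, adjusted p = 0.0481), with levels of 2.10, 1.41 and 1.83 at attachment sites and 3.19, 3.28 and 4.35 in non-pregnant sows. NR4A3, an orphan nuclear receptor, was the only call of 14 tested immediate early and heat shock genes (7.14% against 2.58% of all named genes, median -0.14). It had levels of -3.46, -4.36 and -3.34 at attachment sites and 0.75, -0.35 and -1.79 in non-pregnant sows (log2 -3.26, SE 0.68, adjusted p = 0.0291). Another of its probes differed by -0.17 (SE 0.90, adjusted p = 0.940) and was not called, while the rest were called lower, at -3.27 and -2.61. The related NR4A2 differed by 0.78 and FOS by -0.85, neither of them called.

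Actin and muscle genes had the lowest median of the pathway lists, -1.21, and 4 lower calls of 36 tested (11.1% against 2.58% of all named genes). RND3, a small GTPase that dissolves actin stress fibres, had levels of 0.19, 0.54 and 0.32 at attachment sites, against 3.31, 3.20 and 2.51 in non-pregnant endometrium, and fell 6.32-fold (log2 -2.66, SE 0.39, adjusted p = 0.00898). SGCD, a sarcoglycan of the muscle membrane complex, had levels of -3.98, -3.23 and -3.51 at attachment sites and -0.61, -1.15 and -0.10 in non-pregnant sows (log2 -2.95, SE 0.64, adjusted p = 0.0326). PPP1R14B, an inhibitor of protein phosphatase 1, stood at 2.25, 2.39 and 2.35 at attachment sites and at 3.78, 3.79 and 3.64 in non-pregnant sows (log2 -1.41, SE 0.23, adjusted p = 0.0136). TPM4, a non-muscle tropomyosin, fell by 1.21 (SE 0.29, adjusted p = 0.0459). The defining smooth muscle genes, themselves members of this list, had negative differences and were not called. ACTA2, for example, had levels of 3.95, 7.52 and 4.55 at attachment sites and 8.66, 8.49 and 4.20 in non-pregnant sows. The mean level of 4 smooth muscle genes (CNN1, DES, ACTA2 and MYLK) was 2.66, 6.76 and 3.09 on the attachment-site arrays and 7.73, 7.59 and 2.54 on the non-pregnant arrays. Attachment-site replicate 2 and non-pregnant replicates 1 and 2 were thus high, and ACTA2 differed by -4.54 in slide 2 and by 0.35 in slide 3. RND3 differed by -3.01 and -2.20 in the same slides, but these signs follow from its groups not overlapping and add no check. The part of smooth muscle in the falls of the 4 called genes was not tested.

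**Figure D3:**
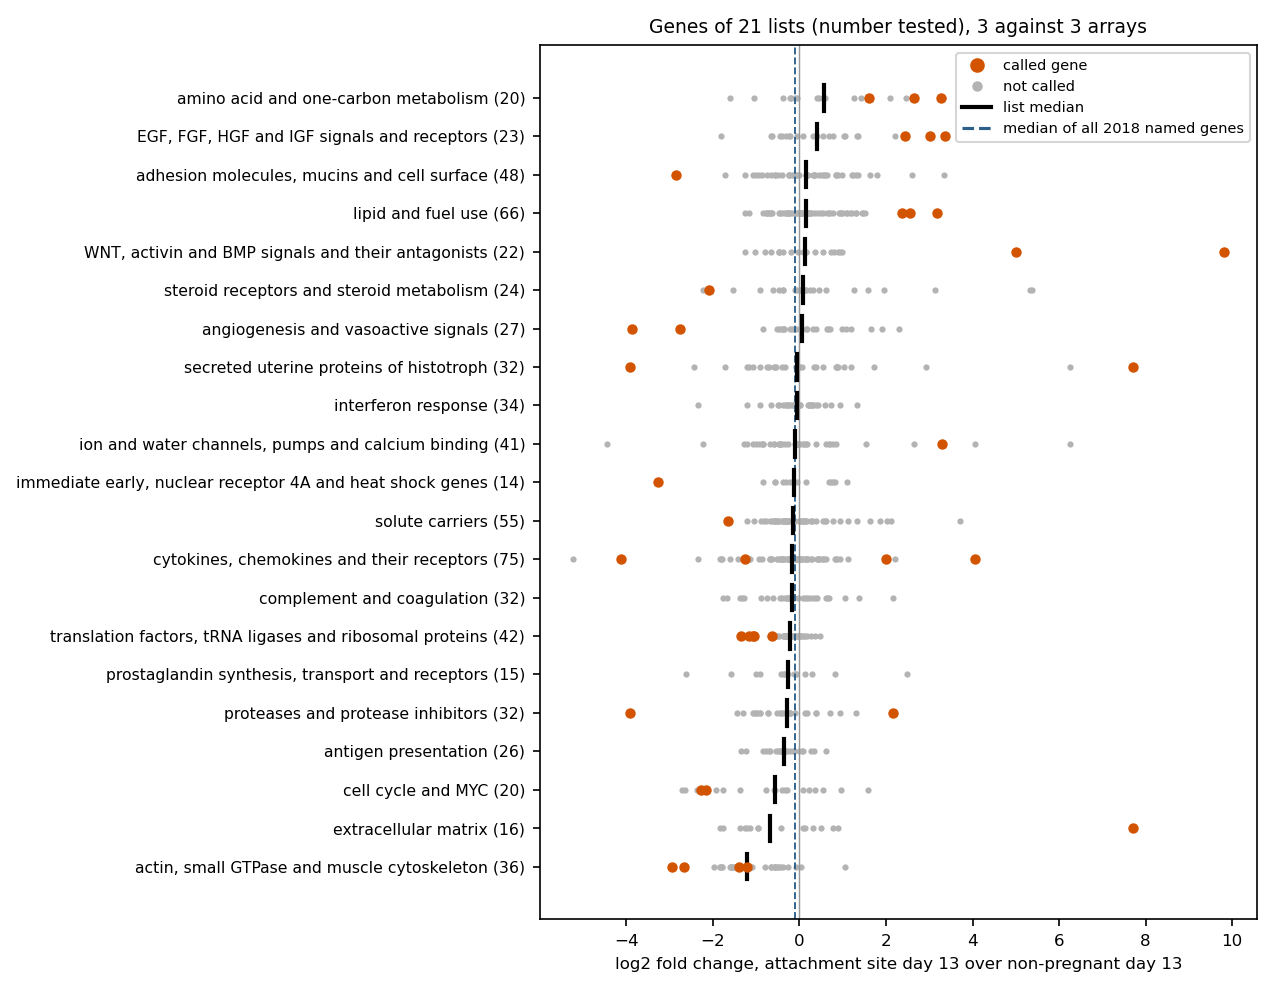
Log2 fold change of day 13 attachment sites over non-pregnant endometrium (horizontal axis) for each tested gene of 21 pathway lists, ordered by list median. Orange points are called genes, grey points genes not called, black bars list medians and the dashed line the median of all 2018 named genes (-0.10); amino acid metabolism has the highest median (0.57) and actin and muscle genes the lowest (-1.21).

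The remaining called genes had smaller or single-probe changes. MFGE8, a milk fat globule protein that binds integrins, fell by 1.25 (SE 0.30, adjusted p = 0.0446). STK26, a protein kinase, was at least 2.27-fold lower (adjusted p = 0.0458), with no attachment-site array well above background. BTG3, an antiproliferative protein, SELENOM, a selenoprotein, DNPEP, an aspartyl aminopeptidase, and INPP4A, a phosphoinositide phosphatase, fell by 1.06, 1.06, 1.04 and 0.85. The other probes of INPP4A, at -0.50 and -1.14, were not called, and neither was the other probe of DNPEP, at -0.80. GTF2H4, a subunit of the transcription and repair factor TFIIH, RAD18, a ubiquitin ligase of DNA damage tolerance, and GSTO1, a glutathione transferase, fell by 0.84, 0.83 and 0.83. In all, 7 of the 52 genes changed less than 2-fold.

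Markers of cell types were checked against the tissue label. Epithelial markers were high on all 6 arrays: the mean of 7 genes was 4.51, 4.20 and 4.28 at attachment sites and 3.18, 3.43 and 3.87 in non-pregnant sows. All 7 differed upwards, by 0.15 (EPCAM) to 1.79 (CLDN3), and none was called. The stromal gene DCN had levels of 7.29 to 7.64 at attachment sites and 7.70 to 8.08 in non-pregnant sows. The mean of 4 endothelial markers was 2.55, 1.79 and 1.84 at attachment sites and 1.96, 2.15 and 1.97 in non-pregnant sows. Stromal and smooth muscle lists had 2 and 4 tested members, and the single tested markers of ciliated epithelium (SPAG6), plasma cells (XBP1) and red cells (HBE1) differed by 0.67, 0.48 and 0.74.

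Of the leukocyte lists, that of neutrophils differed most, but its members CSF3R, CXCR2, ELANE, FPR1 and MPO had no named probe. Whether neutrophil numbers differed was not tested. The mean of 4 neutrophil genes (S100A8, S100A9, S100A12 and PGLYRP1) was 1.67, 1.31 and -1.14 at attachment sites and -2.55, -2.37 and -2.55 in non-pregnant endometrium, and none was called. S100A9, a calcium-binding alarmin, had levels of 4.82, 4.01 and -2.60 at attachment sites and -3.94, -3.78 and -2.79 in non-pregnant sows. Its difference of 5.58 (adjusted p = 0.129) came from attachment-site replicates 1 and 2. T and NK lymphocyte markers (10 tested) had means of -1.97, -2.54 and -2.08 at attachment sites and -2.29, -2.51 and -0.96 in non-pregnant sows, with a median difference of -0.36. The macrophage means were 1.40, 0.74 and 0.82 at attachment sites and 0.50, 0.37 and 1.61 in non-pregnant sows, with CD14 the 1 call of 4. The mast cell genes KIT and MS4A2 differed by -1.23 and -0.34.

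Conceptus markers were measured because a conceptus was attached to the sampled tissue. Of 12 tested genes none was called, and their median was -0.14. The trophoblast interferon genes IFNG and IFN-DELTA-1 had levels of -1.14, -3.69 and -5.68, and of -3.42, -3.11 and -2.86, at attachment sites. In non-pregnant sows these levels were -7.26, -4.68 and -4.69 for IFNG and -3.04, -2.67 and -2.76 for IFN-DELTA-1. The pregnancy-associated glycoprotein probe PAG6 had levels of 0.32, -1.42 and -4.08 at attachment sites and -6.65, -6.42 and -4.02 in non-pregnant sows. It belongs to a family of close paralogues, and its high arrays at attachment sites were replicates 1 and 2. TTR, a carrier protein also made by the yolk sac, differed by 4.82 (adjusted p = 0.0695, and 0.0236 with 19 arrays). AFP, a fetal serum protein, was at least 1.30-fold higher (adjusted p = 0.402), with no non-pregnant array well above background, and the conceptus gene IL1B2 differed by -0.23. The part of conceptus RNA in the results was not tested.

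**Figure D4:**
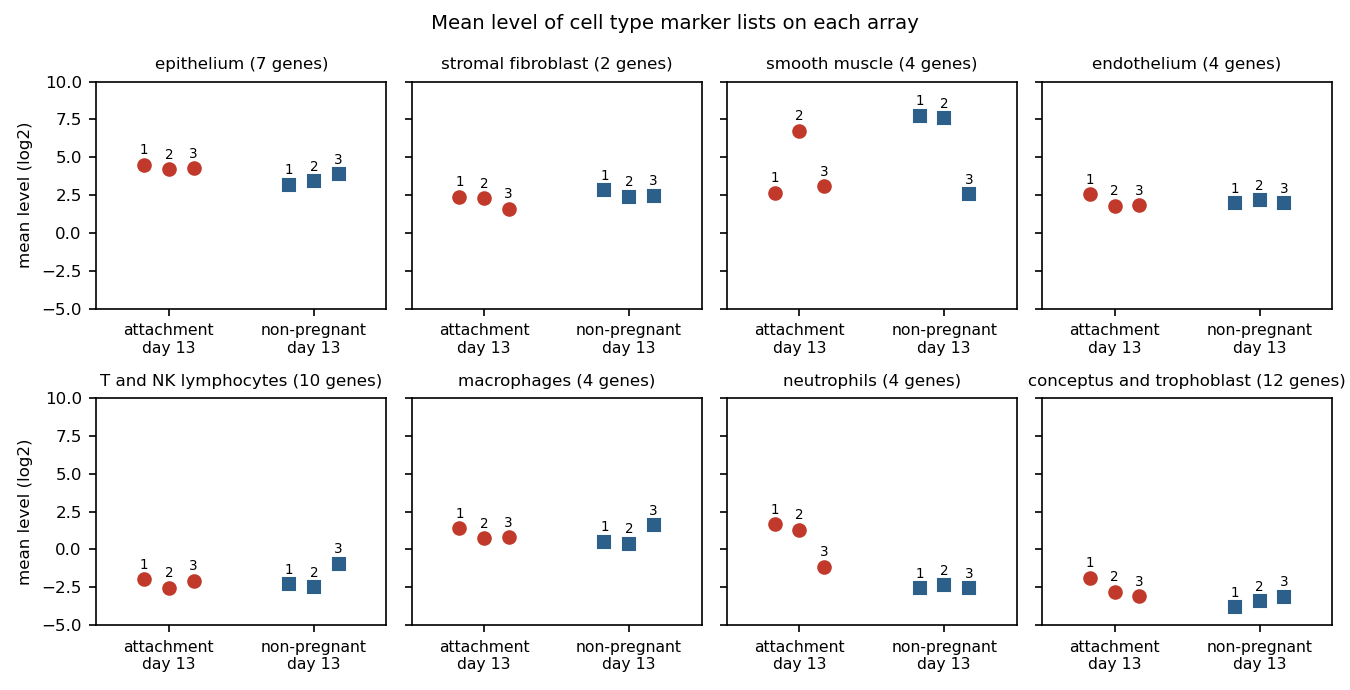
Mean level (log2, with the 75th percentile of the array at 0) of 8 lists of cell type markers on each array, with day 13 attachment sites as red circles on the left of each panel, non-pregnant endometrium as blue squares on the right, and replicate numbers above the points. Smooth muscle genes are high on attachment-site replicate 2 and non-pregnant replicates 1 and 2, and neutrophil genes are highest on attachment-site replicates 1 and 2.

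The difference at attachment sites was set beside that at day 13 inter-sites. The comparisons share the 3 non-pregnant arrays, so their values are given side by side only. FST differed from non-pregnant endometrium by 5.01 at attachment sites and 3.46 at inter-sites, PGR by -2.09 and -1.77, CTGF by 3.37 and 2.0, and SLPI by -3.91 and -2.38. All 52 genes had the same sign at inter-sites, and 10 of them were called there: ANPEP, NR0B1, PGR, RND3, HTR2A, PPP1R14B, TPM4, HNRNPAB, RANBP1 and VARS. The 52 genes were chosen on the shared non-pregnant arrays, which favours the same sign. The shares over all named genes were not computed, so neither count is a check of the calls. The direct test of attachment site against inter-site on day 13 called 0 of 30089 probes in limma (lowest adjusted p = 0.0899, with 2438 probes at an unadjusted p under 0.05, and 0 calls also with 19 arrays). For 48 of the 52 genes the unadjusted interval of that difference held 0. The other 4 genes were OPTC, KMO, PHGDH and STK26, with attachment sites above inter-sites by 2.96, 1.62 and 1.52 and below them by 1.36 for STK26. The direct test did not pair arrays of the site types, although some matched at 98.2% and 97.6% of the on-off probes. A fit with such pairs was not run, so the 0 calls do not show that the site types are alike.

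At later attachment sites some of the higher genes were still above the non-pregnant range and others were not. On both day 18 and day 24, 11 of the 18 genes had all 3 attachment-site arrays above the highest non-pregnant array. DKK1 had mean levels of 4.95, 4.70 and 4.55 at attachment sites of days 13, 18 and 24, and ANPEP of 1.65, 2.29 and 1.94. The inter-sites were less even for DKK1: its lowest array stood at -3.23 on day 13 and at -6.13 on day 24, against -5.37 to -4.62 in non-pregnant sows. By contrast OPTC had means of 1.24, -5.93 and -6.73 at days 13, 18 and 24, PHGDH of 3.07, 0.33 and -0.55, and EGF of -1.76, -4.00 and -4.41. The last 3 were therefore in or near the non-pregnant range on the later days. Of the lower genes, 26 of 34 had all 3 arrays below the lowest non-pregnant array on day 18, and 18 of 34 on day 24. PGR stayed low, with means of 1.19, 1.12 and 0.79, whereas SLPI had means of 4.86, 8.96 and 9.86 and MUC20 of -1.61, -0.48 and 3.09. The non-pregnant arrays are from day 13, so these values of days 18 and 24 have no control of their own age. Over all 12 later arrays of both site types, 3 higher genes (ANPEP, CD14 and SCNN1A) lay above every non-pregnant array. On the same later arrays 6 lower genes (RND3, PPP1R14B, TLR3, DNPEP, GTF2H4 and INPP4A) lay below every non-pregnant array. The higher and lower genes were chosen on these same non-pregnant arrays, which favours later arrays that lie beyond their range. The shares over all named genes were not computed, so the counts in this paragraph do not show that the day 13 changes last.

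**Figure D5:**
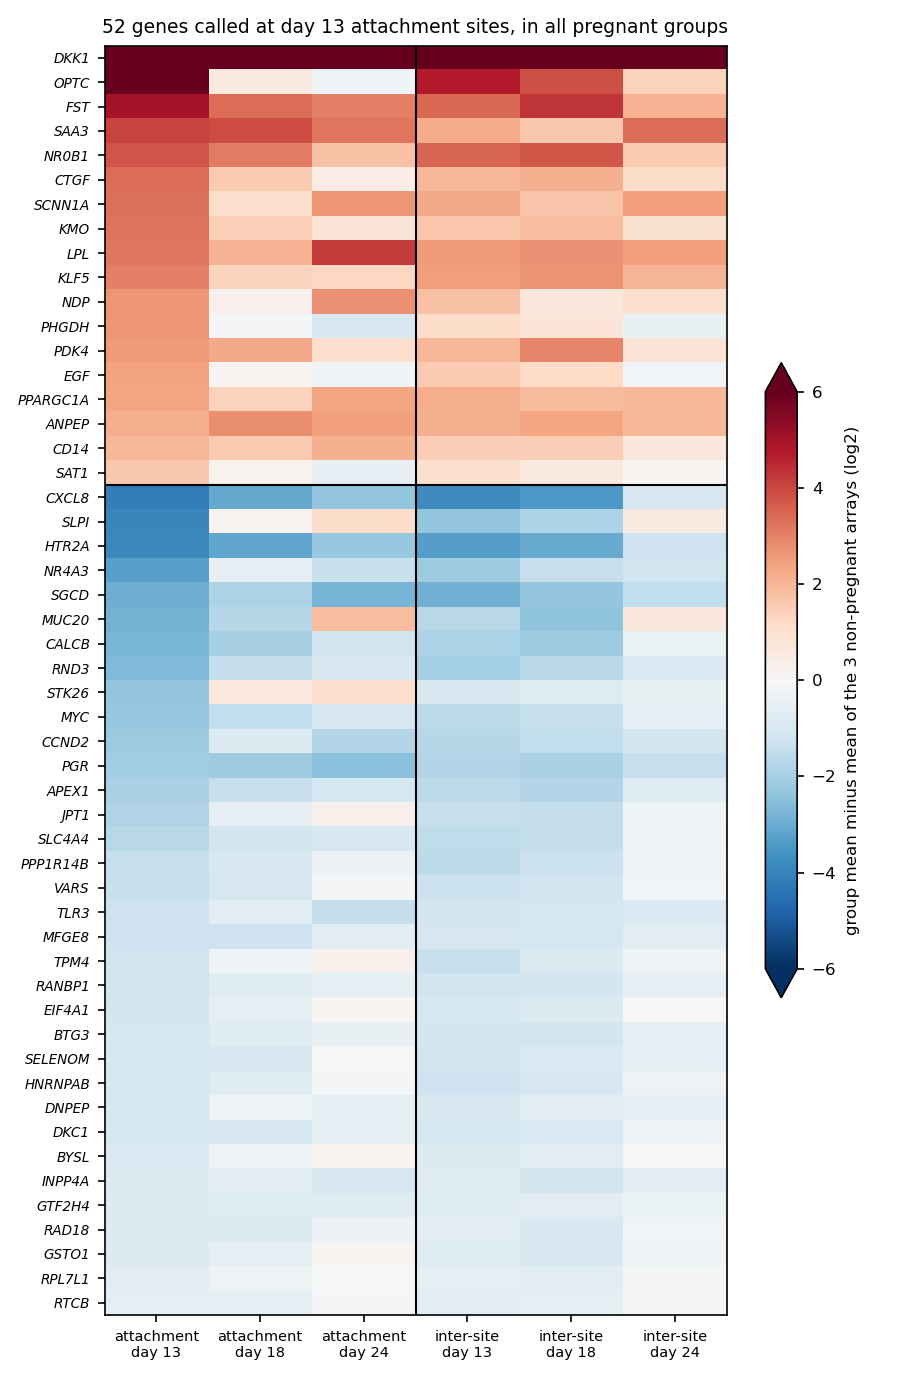
Mean difference from the 3 non-pregnant arrays (log2, colour) of the 52 genes called at day 13 attachment sites, in the attachment sites and inter-sites of days 13, 18 and 24, with 3 arrays in each. Colours are capped at 6; DKK1 has a mean difference past 6 in every group, OPTC, PHGDH and EGF are near 0 or below at attachment sites of day 24, and SLPI and MUC20 are above 0 there.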

How the data were processed

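RNA of 21 endometrium samples was measured on 1-colour Agilent porcine arrays, labelled with Cy3 per the labels. Spot intensity in the deposited scanner output was made with Agilent Feature Extraction 10.7.3.1 per the file headers (10.7 per the submitters' processing notes), background-subtracted within the array. The authors' deposited table holds log2 values with a median of 5.85 in each column; the columns of day 24 inter-site replicates 2 and 3 followed each other's scanner files, and the table served as an alternative only. The deposited 0 or 1 flags mark outlier spots, saturation and signals that stand well above background.

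Of 45220 spots, 43803 were not controls. Outlier-flagged spots were left out (120 probe values then missing) and spots of a probe averaged. Processed signals were taken to log2, and the 75th percentile of each array was subtracted. Tested probes were those well above background in every array of 1 or more of the 7 groups. A single model with 7 group means over the 21 arrays was fitted in limma 3.58.1 under R 4.3.3 (14 residual and 2.71 prior degrees of freedom), with Benjamini-Hochberg adjustment over all tested probes, two-sided. Scripts were tested on simulated data. Gene symbols came from the RefSeq accession of the probe, matched without version: 5461 of 5779 such probes gave 2389 genes, and 38142 probes stayed unnamed.

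Where no array of a group was well above background, "at least N-fold" sets the brighter group's mean against a floor: on each array the dimmest signal that counted as well above background, or the probe's value if that was higher, averaged over the group. Intensities are limited in precision by the number of arrays. Named in full were the 15 genes with the largest rise and the 15 with the largest fall among those called and well above background on all 6 arrays. The other called genes were named briefly, and for each list its called members or, with under 2 of these, the 3 largest differences. A set of genes known in this tissue and the cell type markers were named too. Members and lists were chosen with earlier results of these data known. The replicate numbers did not pair the samples by the labels, and fits with them as a block served as alternatives, beside other scalings, backgrounds, filters, blocks and left-out arrays. The normexp alternative used the median spot intensity, since the mean was not among the columns used here. Some genes that the rule would name are not reported here.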

Additional observations from a re-analysis of the deposited data

How the results depend on the processing

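The count of 534 called probes stayed within 1.5 times under quantile normalization, the array median, the deposited table, the filter on the 2 groups, the intensity trend and slide as a random block (439 to 695). It was 26 with normexp background (18 higher and 8 lower; median of all probes -0.26 against -0.06), 181 without a filter on dim probes, 1297 with only the 6 arrays and 1968 with 19 arrays. It was 0 with slide as a fixed block (lowest adjusted p = 0.0506, 5103 probes at an unadjusted p under 0.05). A random block of libraries that match at on-off probes gave 377 from 9 probes in 4 sets (estimated correlation 0.193). A looser form, chosen after seeing the data, gave 0 from 164 probes in 10 sets (estimated correlation 0.513, lowest adjusted p = 0.153, 2670 probes at an unadjusted p under 0.05). Leaving out 1 of the 6 arrays gave 0 to 657. With the replicate number as a block the count was 578, of which 465 were among the 534, and 42 of the 52 genes kept their call. Same-numbered arrays deviated together at r = -0.28, 0.35 and 0.09, so the numbers do not pair the samples. The attachment-site against inter-site count was 0 in each of its fits, the replicate block included, and none of these fits used the on-off matches. None of the 52 genes changed direction in any setting. Since their groups do not overlap, settings that only leave out arrays or look within a slide could not reverse them. With normexp background, 503 of the 534 called probes kept their sign. RND3 was called in 16 of 20 settings, HTR2A and OPTC in 15, and JPT1 in 3. The cause of these shifts was not tested. Signal over background limits DKK1, OPTC, SCNN1A, NR0B1, NDP, CXCL8, HTR2A and STK26, which were not well above background on every array.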

Other observations

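For 11 further genes the brightest probe was not called but another probe was. FBN1, fibrillin of the extracellular matrix, had 3 probes at -0.97, -1.57 and -1.62, of which the last 2 were called. PMEPA1, an inhibitor of TGF-beta signalling, had probes at -1.37 and -1.57, and FCN2, a ficolin of the lectin pathway of complement, at -1.37 and -2.52, with the second called in each. The kinase gene JAK2 (1.27 and 1.05) and the nuclear receptor coactivator NCOA2 (0.86 and 0.84) had similar values on both probes and 1 call each. For RTN4, MUT and DDX39B the called probe stood alone: that of RTN4 was at 1.41 and the other probes at 0.07 to 0.49. The 2 probes of MUT stood at 1.28 and -0.29. Of the 534 called probes, 417 carry no gene symbol here and are not named.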
